A study of Homo sapiens with 3 samples.

Results

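The 32 genes described here belong to the ATF4 stress response and to amino acid supply, and were followed across 3 RNA-seq libraries. They were taken by gene symbol from a list of integrated stress response factors, enzymes of serine and one-carbon synthesis, enzymes of other amino acids and amino acid transporters, and all 32 were found among the 25270 symbols of each library. HepG2 is a human liver cancer cell line. Parental HepG2 cells had received no drug. HepG2/metR cells, called resistant cells below, are described as the survivors of HepG2 cultures kept under metformin, a complex I inhibitor, for over 5 months, and they were sequenced untreated and after 24 h in 40 mM oxamate, which blocks lactate dehydrogenase. All cultures grew in the same serum-supplemented medium, and whether metformin was still present at harvest is not given in the sources used here. Each condition had 1 library, so no difference below has a replicate check and no p-value is given.

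In the integrated stress response, kinases that sense amino acid shortage, misfolded protein, heme deficiency, mitochondrial stress or viral RNA phosphorylate the translation factor eIF2. General translation is then slowed while translation of ATF4 mRNA is favoured, and ATF4, a bZIP transcription factor that pairs with C/EBP proteins, activates genes for amino acid import, amino acid synthesis and stress control. In liver cells the response is known to be engaged by amino acid limitation and by inhibitors of the mitochondrial respiratory chain. Because ATF4 is controlled largely at translation, its mRNA level is not a measure of its protein.

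Expression is given as FPKM, fragments scaled to transcript length and library size, so levels of different genes can be compared. Log2 changes are differences of the deposited log2(FPKM + 1) values, a scale that understates changes of genes at low levels. The FPKM values of a library summed to 562382, 534646 and 473773 in parental, resistant and treated cells. The number of reads is unknown. The lowest values place the untreated and oxamate-treated HepG2/metR libraries at 1.21 and 1.24 times the depth of the parental library.

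The hepatocyte label of the line was checked with 18 hepatocyte genes. Their FPKM values summed to 38254 in parental cells, 15.0 in resistant cells and 12.5 in oxamate-treated cells. All 18 reached 1 FPKM in parental cells, led by APOA2 at 11976 FPKM. In resistant cells 2 of 18 did, led by SERPINA1 at 11.2 FPKM, and 7 of 18, among them APOA1 and TTR, were listed at 0. Of 10 mesenchymal and fibroblast genes, 6 reached 1 FPKM in parental cells and 7 in each HepG2/metR library, with summed levels of 1549, 1725 and 1340 FPKM. These sums cover large opposite moves of single genes. VIM was at 1.23 FPKM in parental and 1576 in resistant cells, and THY1 at 0.0374 and 53.3 FPKM. FN1 was instead at 1503 FPKM in parental and 45.7 in resistant cells. TWIST1 was the gene of that list at 0 in the parental library. Of 8 blood and endothelial genes, all but CD68 were below 1 FPKM in both HepG2/metR libraries. Their sums were 38.3, 43.7 and 31.7 FPKM in parental, resistant and treated cells, with CD68 highest in each, and CD3E, PECAM1, KDR and CDH5 were at 0 in resistant cells. The hepatocyte genes thus moved with the comparison of HepG2/metR and parental cells, and their part in each result of that comparison was not tested. Whether the HepG2/metR libraries come from cells with the DNA profile of HepG2 cannot be told from these values, and this doubt applies to every difference between resistant and parental cells below. In such bulk RNA, fewer cells of a type and less RNA per cell cannot be told apart.

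The stress and amino acid supply genes were split between HepG2/metR and parental cells. Most had lower values after oxamate, though most did not pass its threshold. A mean of at least 1 FPKM over the libraries was reached by 30 of the 32 genes, with ALDH1L2 and FGF21 below it. PSAT1, CHAC1 and VLDLR passed although they were under 1 FPKM in at least 1 library. In resistant cells 8 of the 30 were at least 2-fold higher than in parental cells, against 16.6% of the 12210 genes kept in the same way. A further 4 of the 30 were at least 2-fold lower, against 17.6% of all genes kept. The shares of 26.7% and 13.3% of the 30 genes lay on either side of these background shares. The 30 genes had a median log2 change of 0.02, as did all genes kept. With oxamate 12 of the 30 fell at least 1.5-fold, a share of 40.0%, against 3.82% of all genes kept. None rose by that factor, against 4.30% of all genes kept. The genes were chosen with earlier results of these data known, so these shares are a description and not an independent contrast. The median log2 change with oxamate was -0.50 for the 30 genes and 0.02 for all genes kept. Of the 30 genes, 26 had a change below 0, against 5563 of all 12210 genes kept. Beside these falls, 2 of the 7 mesenchymal genes kept rose at least 1.5-fold, FN1 from 45.7 to 93.7 FPKM and PDGFRB from 3.66 to 7.26 FPKM. Another 2 of the 7 fell without passing 1.5-fold, VIM from 1576 to 1140 FPKM and THY1 from 53.3 to 48.5 FPKM. The share of FPKM from small-RNA genes went from 0.8796% to 2.204% with oxamate. The part of the mesenchymal genes or of this share in the falls of the 30 genes was not tested. Both comparisons use the untreated resistant library, and any fault of it would enter them with opposite sign.

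**Figure D1:**
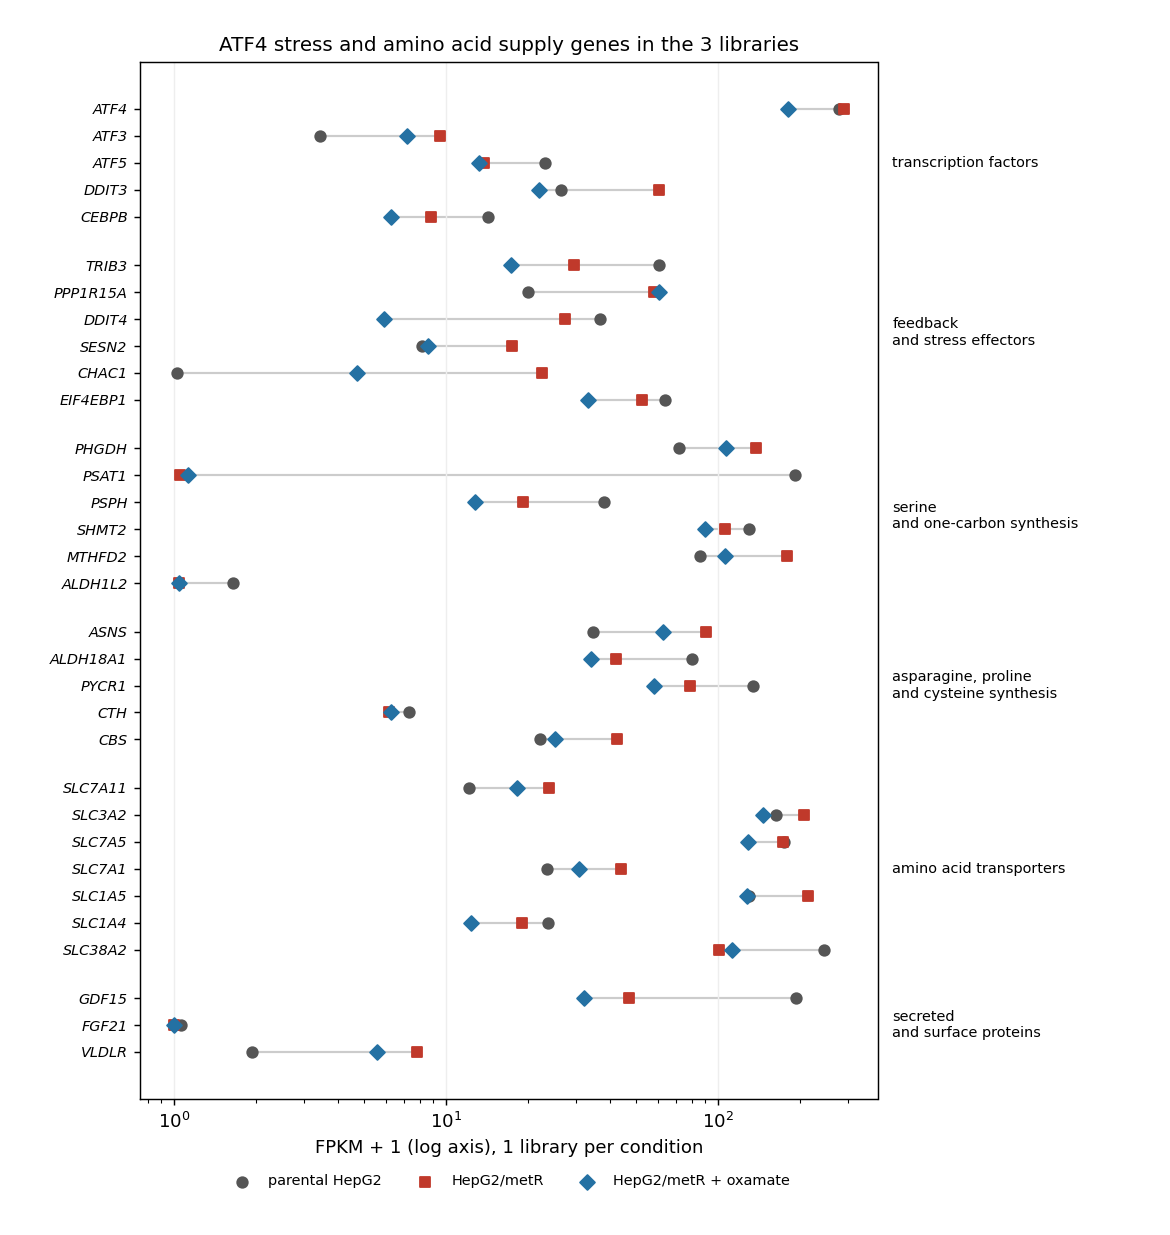
FPKM + 1 on a log axis for each of the 32 genes, with 1 point per library (circle, parental HepG2; square, HepG2/metR; diamond, oxamate-treated HepG2/metR) and a grey line spanning the 3 values. PSAT1 drops from 191 FPKM in parental cells to nearly 0 in both HepG2/metR libraries, and CHAC1 is nearly absent in parental cells and highest in HepG2/metR cells.

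**Figure D2:**
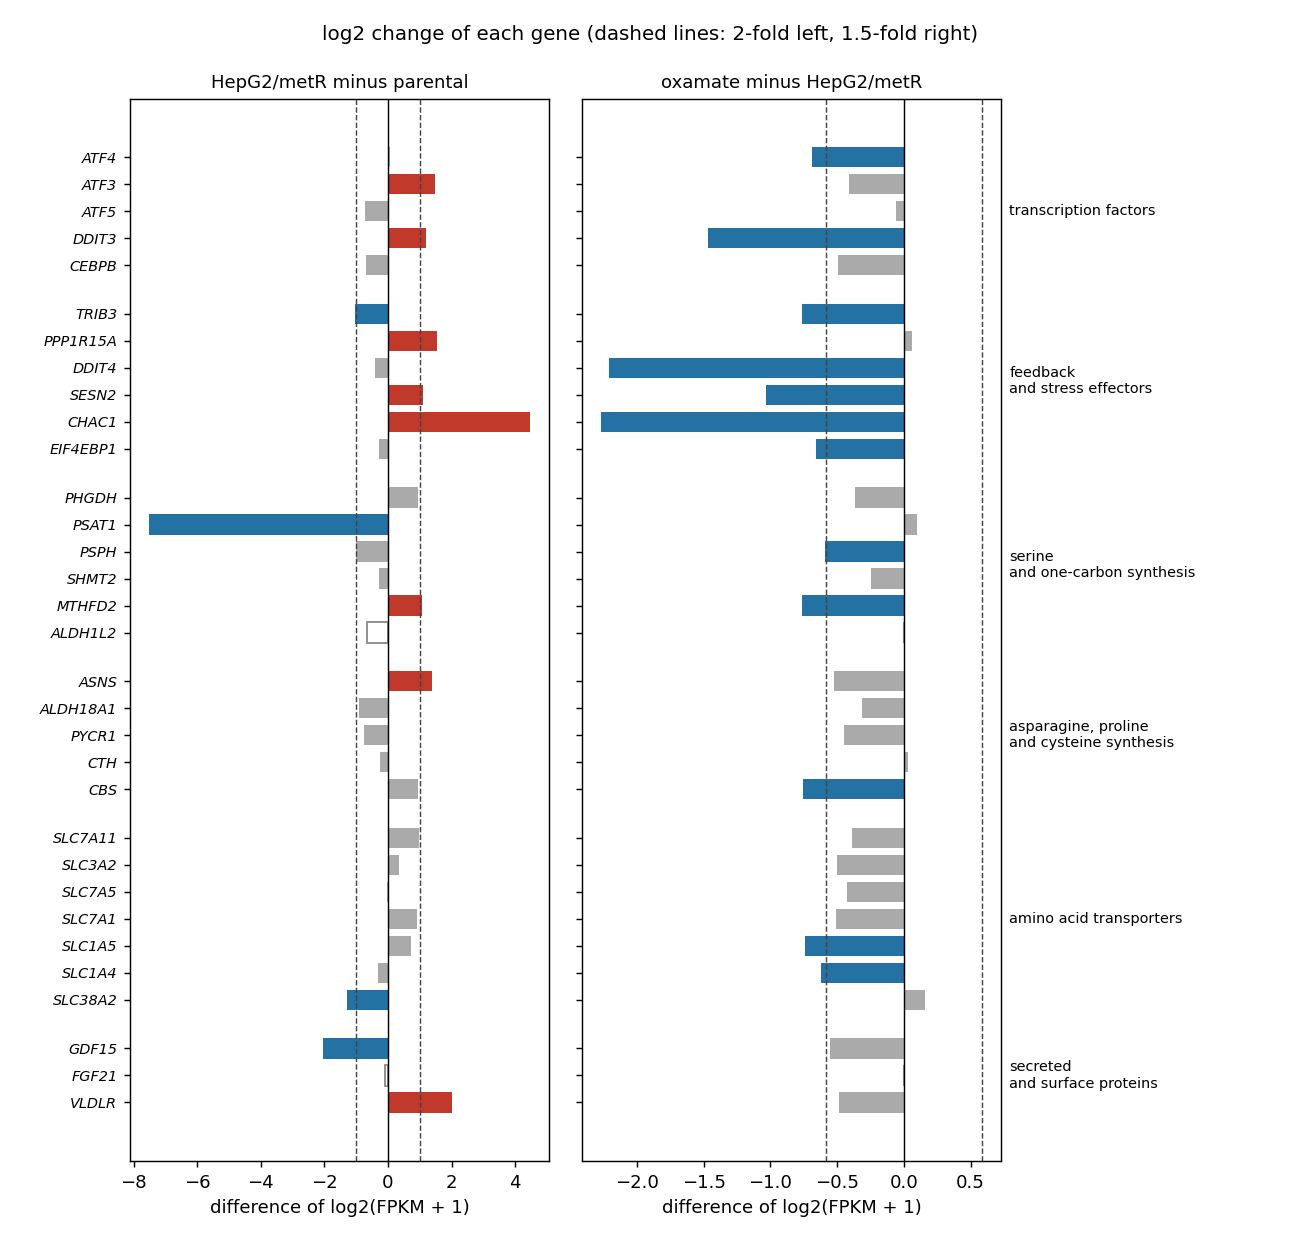
Log2 change of each gene, left for HepG2/metR against parental cells and right for oxamate against untreated HepG2/metR cells, with dashed lines at 2-fold and 1.5-fold, red bars past the line upwards, blue bars past it downwards, grey bars between and open bars for the genes with a mean below 1 FPKM. The left panel has 8 red and 4 blue bars, and the right panel has 12 blue bars and no red bar.

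Among the transcription factors, ATF4 was the most abundant, at 279 FPKM in parental cells, 290 in resistant cells and 180 under oxamate. Its mRNA was thus nearly equal in the untreated cultures, with a log2 change of 0.06, and fell with oxamate by 0.69 on the log2 scale, a factor of 1.61. DDIT3, which encodes the pro-apoptotic factor CHOP, was listed at 25.5 FPKM in parental cells, 59.9 in resistant cells and 21.1 under oxamate. It was 2.30-fold higher in resistant than in parental cells and 2.76-fold lower after oxamate, which left it below the parental level. ATF3, an early stress-induced repressor and activator of the same bZIP family, was low throughout, at 2.44, 8.52 and 6.17 FPKM in parental, resistant and treated cells. Its log2 changes were 1.47 and -0.41, and only the first passed its threshold. ATF5, a relative of ATF4 linked to the mitochondrial unfolded protein response, and CEBPB, a C/EBP partner, were highest in parental cells. ATF5 was listed at 22.0, 12.8 and 12.3 FPKM in parental, resistant and treated cells. CEBPB stood at 13.3, 7.84 and 5.27 FPKM in the same order. Neither passed a threshold in either comparison, with log2 changes of -0.74 and -0.06 for ATF5 and -0.70 and -0.50 for CEBPB.

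Of the 6 feedback and stress effector genes, 5 fell at least 1.5-fold with oxamate, against 3.82% of all genes kept. CHAC1, an enzyme that degrades glutathione, was listed at 0.0304 FPKM in parental cells, 21.6 in resistant cells and 3.70 under oxamate. The parental library was nearly without it, and the treated library lay between the others. On the log2(FPKM + 1) scale its changes were 4.46 and -2.27, that is 21.9-fold higher in resistant cells and 4.81-fold lower after oxamate. DDIT4, an inhibitor of mTORC1 signalling also called REDD1, was listed at 35.8 FPKM in parental cells, 26.5 in resistant cells and 4.94 under oxamate. The untreated cultures were near each other, with a log2 change of -0.42, and the treated library stood apart from both, 4.63-fold below untreated resistant cells. Among the 8971 genes with a mean of at least 5 FPKM, DDIT4 had the 17th, DDIT3 the 22nd and SESN2 the 43rd lowest log2 change with oxamate. SESN2, a leucine-sensing inhibitor of mTORC1, was listed at 7.18 FPKM in parental cells, 16.5 in resistant cells and 7.56 under oxamate. Its oxamate-treated value was close to the parental value, after changes of 1.10 and -1.03 on the log2 scale. TRIB3, a pseudokinase that restrains ATF4 and AKT, was listed at 59.8, 28.5 and 16.4 FPKM in parental, resistant and treated cells. It was lower at each step, with log2 changes of -1.05 and -0.76, and the first passed the 2-fold threshold narrowly. EIF4EBP1, a repressor of cap-dependent translation, was listed at 63.1, 51.7 and 32.3 FPKM in the same order, with log2 changes of -0.28 and -0.66. PPP1R15A, which encodes the GADD34 subunit that directs a phosphatase to eIF2, was the exception in this group. Its levels were 19.1 FPKM in parental cells, 57.0 in resistant cells and 59.6 under oxamate, so that it was 2.89-fold higher in resistant cells and nearly level with oxamate, at a log2 change of 0.06.

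ATF4 and C/EBP proteins bind a composite element, and its letters TGATGCAA were searched on both strands of the RefSeq promoter windows (build GRCh38.p14), which run from 250 bases before to 50 bases after a transcript start. Windows were found for 26 of the 32 genes, and those of ALDH1L2, EIF4EBP1, PSPH, PYCR1, SHMT2 and SLC7A11 were not examined. Of the 26 genes, 4 (15.4%) held the letters in at least 1 window, against 1.08% of the 27305 genes with a window and 0.626% of the 9101 of them among the genes kept. In the list of other ATF4 target genes described below, 2 of 17 (11.8%) held them. Per window, 4 of 42 (9.52%) held them against 0.866% of all 35116 windows of that length. The genes were CHAC1, SLC1A5, SLC1A4 and FGF21. These 4 stretches are shown because they carry the element, and the ASNS stretch was added after the search because it holds the looser letters TGATGNAA, in a gene whose response to amino acid shortage is a classic of this field. Each is written 5′ to 3′ on the strand of its gene. The element or its reverse complement, or in ASNS the looser letters, are in capitals.
CHAC1: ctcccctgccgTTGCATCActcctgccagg
SLC1A5: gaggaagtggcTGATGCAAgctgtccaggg
SLC1A4: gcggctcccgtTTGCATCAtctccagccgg
FGF21: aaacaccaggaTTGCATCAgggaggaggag
ASNS: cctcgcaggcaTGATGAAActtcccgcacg
The stretches lie at chr15:40953251-40953280 on the plus strand for CHAC1, chr19:46784893-46784922 on the minus strand for SLC1A5, chr2:64989381-64989410 on the plus strand for SLC1A4, chr19:48755459-48755488 on the plus strand for FGF21 and chr7:97872458-97872487 on the minus strand for ASNS. The element spans bases -209 to -202 from the start in CHAC1, -97 to -90 in SLC1A5 and -54 to -47 in FGF21. In SLC1A4 it runs across the start, from -7 to 1. The looser letters in ASNS span -68 to -61. SLC1A5 and SLC1A4 each have other annotated starts whose windows did not hold the letters.

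CHAC1 had the largest fall with oxamate of the 30 genes, and its 250 bases before the start (chr15:40953221-40953470, plus strand) are therefore given whole, with the element in capitals.
CHAC1 upstream: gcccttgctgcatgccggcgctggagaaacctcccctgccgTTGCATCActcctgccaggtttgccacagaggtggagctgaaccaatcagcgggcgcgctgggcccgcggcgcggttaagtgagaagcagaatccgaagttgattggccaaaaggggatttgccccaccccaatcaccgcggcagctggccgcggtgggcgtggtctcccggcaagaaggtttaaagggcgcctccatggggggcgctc
The windows of DDIT4, DDIT3, SESN2 and TRIB3 did not hold TGATGCAA, which says only that these letters are not within 250 bases before or 50 after the starts searched. With TGATGNAA, which includes all TGATGCAA matches, 8 of 26 genes (30.8%) had a match against 3 of 17 (17.6%) of the other ATF4 target genes and 4.46% of all genes with a window. ASNS, ATF3, SLC3A2 and SLC7A1 were added by that wider search, in SLC3A2 and SLC7A1 after the start. A match is a string of letters and not a measured binding site.

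The serine and one-carbon genes did not move as a unit. PSAT1, the aminotransferase of the serine pathway, was listed at 191 FPKM in parental cells, 0.0532 in resistant cells and 0.129 under oxamate. Parental cells were the library with the gene expressed, and both HepG2/metR libraries were near 0. The log2 change in HepG2/metR was -7.51, the lowest of the 30 genes, and the gene passed the filter only through the parental library. PHGDH, the dehydrogenase that feeds PSAT1, was instead listed at 70.9, 137 and 106 FPKM in parental, resistant and treated cells, with log2 changes of 0.95 and -0.37 that fell short of both thresholds. PSPH, the phosphatase that completes the pathway, was listed at 37.3, 18.2 and 11.8 FPKM. It was lower at each step, by factors of 1.995 and 1.505, the first just short of 2-fold and the second just past 1.5-fold. Reads of PSPH can be shared with a closely similar pseudogene, so its level is uncertain. In the mitochondrial folate pathway, MTHFD2 was listed at 84.8 FPKM in parental cells, 179 in resistant cells and 105 under oxamate. It was highest in untreated resistant cells, 2.09-fold above parental cells and 1.70-fold above treated cells. SHMT2, which supplies that pathway with one-carbon units from serine, was listed at 130, 105 and 88.5 FPKM and passed neither threshold, with log2 changes of -0.30 and -0.25. ALDH1L2, the mitochondrial formyltetrahydrofolate dehydrogenase, was at 0.649 FPKM in parental and at 0.0415 and 0.0403 in the HepG2/metR libraries.

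Of the enzymes for asparagine, proline and cysteine, 1 of 5 was at least 2-fold higher in resistant cells, against 16.6% of all genes kept. With oxamate 1 of 5 fell at least 1.5-fold, against 3.82%. ASNS, asparagine synthetase, was listed at 33.9 FPKM in parental cells, 89.6 in resistant cells and 62.1 under oxamate. It was 2.60-fold higher in resistant than in parental cells, and the change of -0.52 with oxamate did not reach the threshold of 0.58. CBS, the first enzyme of transsulfuration, was listed at 21.2, 41.4 and 24.1 FPKM in parental, resistant and treated cells. It was just under 2-fold higher in resistant cells, at 1.91-fold, and 1.69-fold lower with oxamate, so that the treated and parental values were close. CTH, the next enzyme of transsulfuration, was low, at 6.32, 5.15 and 5.29 FPKM, with log2 changes of -0.25 and 0.03. The proline enzymes ALDH18A1 and PYCR1 were highest in parental cells. ALDH18A1 was listed at 79.2, 41.3 and 33.1 FPKM, with log2 changes of -0.92 and -0.31. PYCR1 was listed at 134, 78.1 and 57.1 FPKM, with log2 changes of -0.77 and -0.44, and neither gene passed a threshold.

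Among the amino acid transporters, SLC1A5, SLC3A2, SLC7A5 and SLC38A2 were at 100 FPKM or more in resistant cells, SLC38A2 by a very narrow margin. SLC1A5, the glutamine and neutral amino acid carrier ASCT2, was listed at 129 FPKM in parental cells, 213 in resistant cells and 127 under oxamate. The treated library was level with the parental one, and the log2 changes were 0.71 and -0.74, of which the second passed its threshold. SLC1A4, the related carrier ASCT1, was listed at 22.8, 18.0 and 11.4 FPKM and was 1.54-fold lower with oxamate. SLC38A2, the sodium-coupled carrier SNAT2 that is induced by amino acid starvation, was listed at 244 FPKM in parental cells, 100.004 in resistant cells and 112 under oxamate. It was 2.42-fold lower in resistant cells and, at a log2 change of 0.16, not lower with oxamate, which set it apart from the other 6 transporters. SLC3A2 is the heavy chain shared by the exchangers SLC7A5 and SLC7A11. It was listed at 162, 206 and 146 FPKM in parental, resistant and treated cells, with log2 changes of 0.34 and -0.50. SLC7A5, the leucine carrier LAT1, was listed at 174, 172 and 128 FPKM, with log2 changes of -0.02 and -0.43, and its reads can be shared with pseudogene copies. SLC7A11, the cystine importer xCT, was far lower, at 11.1, 22.8 and 17.2 FPKM, with log2 changes of 0.98 and -0.39. SLC7A1, a carrier of cationic amino acids, was listed at 22.5, 43.0 and 29.9 FPKM, with log2 changes of 0.90 and -0.51. All of these passed no threshold, and SLC7A11 and SLC7A1 came within 0.10 of the 2-fold line in resistant cells.

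Of the secreted and surface products, GDF15, a stress hormone that acts on the hindbrain, was listed at 193 FPKM in parental cells, 46.0 in resistant cells and 31.1 under oxamate. It was 4.13-fold lower in resistant than in parental cells, and the log2 change with oxamate was -0.55, short of the threshold. VLDLR, a lipoprotein receptor known to be induced through ATF4, was listed at 0.940, 6.80 and 4.56 FPKM in parental, resistant and treated cells. It was 4.02-fold higher in resistant cells on the log2(FPKM + 1) scale, with a log2 change of -0.49 after oxamate. FGF21, the starvation hormone of the liver, was at 0.0616 FPKM in parental cells and listed at 0 in both HepG2/metR libraries.

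The change with oxamate depended on expression level across all genes, and this bears on how the falls are read. The median log2 change of all genes was 0.12 for a mean of 5 to 10 FPKM, -0.07 for 20 to 50 FPKM, -0.20 for 50 to 100 FPKM and -0.26 for 100 to 200 FPKM. Accordingly the background share of genes at least 1.5-fold lower was 1.86%, 4.16%, 9.49% and 11.4% in those ranges. Of the stress and amino acid supply genes, 1 of 4, 6 of 8, 0 of 5 and 2 of 7 fell by that factor in the same ranges. In the ranges of 2 to 5, 10 to 20 and 200 to 500 FPKM, 0 of 1, 2 of 4 and 1 of 1 did. The background shares there were 2.32%, 3.31% and 15.7%. PSAT1 counts at 50 to 100 FPKM through its parental level alone, and was near 0 in both libraries compared. Background genes were likewise placed by their mean over all libraries, so some of them were near 0 in both libraries compared. At a mean of at least 50 FPKM the median was -0.44 for 13 of these genes and -0.24 for all 1638 genes, with 3 of 13 against 10.7% at least 1.5-fold lower. The part of expression level in the falls was not tested.

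**Figure D3:**
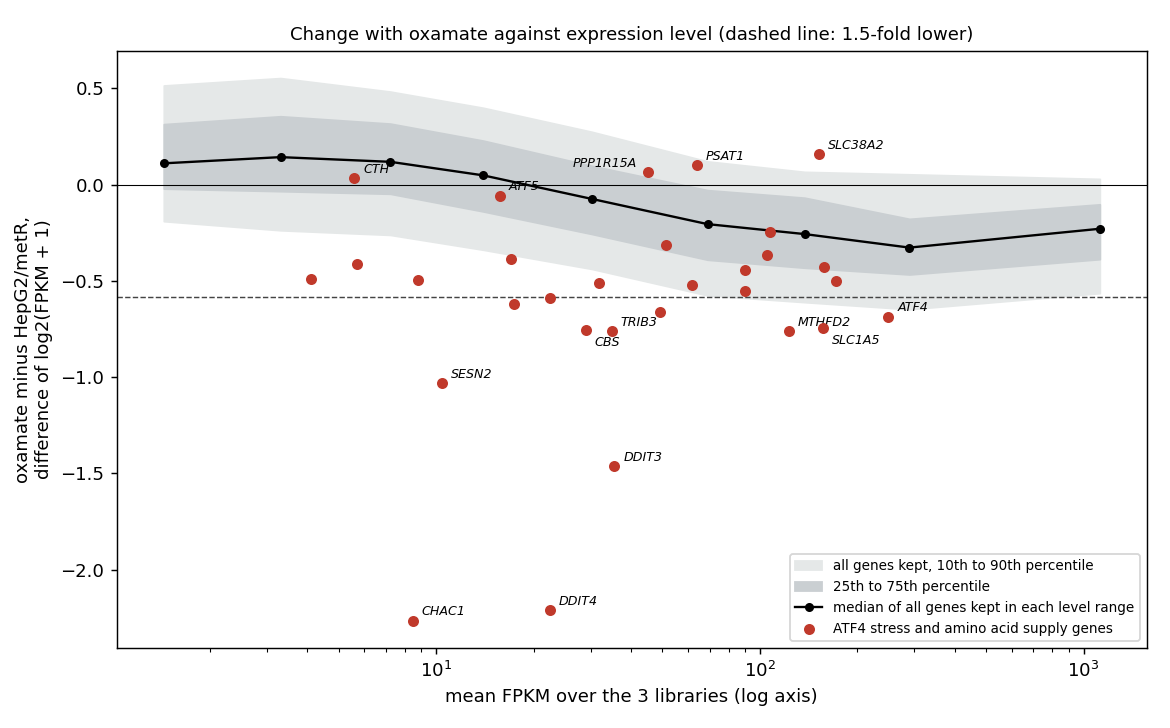
Log2 change with oxamate against the mean FPKM over the 3 libraries (log axis), with 1 red point for each of the 30 genes kept, and for all 12210 genes kept the median (black) and the 10th to 90th and 25th to 75th percentiles (grey) in ranges of expression level. CHAC1, DDIT4, DDIT3 and SESN2 lie far below the grey bands, while SLC38A2, PSAT1 and PPP1R15A lie above the median line.

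The scaling of the libraries also mattered for the counts. Between resistant and parental cells 12 genes were at least 2-fold higher and 3 lower under upper-quartile scaling, against 18.9% and 15.4% of all genes. At the same FPKM total they were 11 and 3, against 17.4% and 16.3%. That scaling to the same total moved the median of all genes with oxamate from 0.02 to 0.17, and 7 of the 30 genes were at least 1.5-fold lower against 1.57% of all genes. Of all genes 9.70% were then at least 1.5-fold higher. With small-RNA genes left out of that total, the median of all genes was 0.18 and 4 of 30 were at least 1.5-fold lower against 1.42%, while 10.5% of all genes were higher by that factor. CHAC1, DDIT4, DDIT3 and SESN2 passed the threshold under every alternative tried, whereas ATF4, CBS, EIF4EBP1, MTHFD2, PSPH, SLC1A4, SLC1A5 and TRIB3 each lost it under at least 1.

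Other genes of the pathway were examined in lists written from general knowledge, also with earlier results of these data known. Of 20 genes for the eIF2 kinases, eIF2, eIF2B and the eIF2 phosphatase, none fell 1.5-fold with oxamate and 1 rose, against 3.82% and 4.30% of all genes kept, with a median log2 change of -0.03. The gene that rose was OMA1, the mitochondrial protease that relays mitochondrial stress, at 8.49 FPKM in parental cells, 7.91 in resistant cells and 16.4 under oxamate, and the log2 change with oxamate was 0.97. Between resistant and parental cells 1 of the 20 was at least 2-fold lower and none higher, against 17.6% and 16.6% of all genes kept. It was EIF2AK3, the endoplasmic reticulum kinase PERK, listed at 10.8, 3.35 and 3.94 FPKM in the 3 libraries. The amino acid sensing kinase GCN2, encoded by EIF2AK4, was listed at 17.7, 23.2 and 27.5 FPKM, and the heme-regulated kinase HRI, encoded by EIF2AK1, at 47.7, 28.0 and 27.7 FPKM. Neither passed a threshold, with log2 changes of 0.37 and 0.24 for EIF2AK4 and -0.75 and -0.02 for EIF2AK1.

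A list of possible bZIP partners and relatives of ATF4 had 16 genes kept, and pairing was not examined. Of these, 5 were at least 2-fold higher and 4 at least 2-fold lower in resistant than in parental cells. The shares of all genes kept were 16.6% and 17.6%, and the 16 genes had a median log2 change of 0.14. CEBPA, a C/EBP factor of differentiated hepatocytes, was listed at 74.3 FPKM in parental cells, 0.558 in resistant cells and 0.723 under oxamate. The AP-1 gene FOSL1 ran the other way, at 11.5, 192 and 115 FPKM. With oxamate FOSL1 was the 1 gene of the 16 that fell 1.5-fold, at a log2 change of -0.74, and none rose, against 3.82% and 4.30% of all genes kept. CEBPG, a common partner of ATF4, was listed at 18.6, 20.7 and 15.0 FPKM, with log2 changes of 0.15 and -0.44.

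Of 24 other ATF4 target genes 23 were kept, and with oxamate 2 fell and 1 rose at least 1.5-fold, against 3.82% and 4.30% of all genes kept, with a median log2 change of -0.21. Those that fell were HERPUD1, a factor of protein disposal at the endoplasmic reticulum, and GARS, the glycyl-tRNA synthetase, with log2 changes of -0.68 and -0.65. GARS was listed at 64.1 FPKM in parental cells, 133 in resistant cells and 84.4 under oxamate. The gene that rose was KLHL24, at a log2 change of 0.76 and at most 2.64 FPKM, named here after its value was seen. In resistant cells 3 of the 23 were at least 2-fold higher and 3 at least 2-fold lower than in parental cells, against 16.6% and 17.6% of all genes kept. NUPR1, a small stress-induced chromatin protein, was listed at 51.1 FPKM in parental cells, 0.798 in resistant cells and 0.999 under oxamate. FAM129A, also called NIBAN, was listed at 0.00602, 22.0 and 19.9 FPKM in the same order.

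Genes of the ATF6 and XBP1 arms, which answer misfolded protein in the endoplasmic reticulum beside the PERK arm, had medians below 0 in both comparisons, though most did not pass a threshold. Of these 19 genes, 8 were at least 2-fold lower and none at least 2-fold higher in resistant than in parental cells, against 17.6% and 16.6% of all genes kept, with 2 of 19 above 0 and a median log2 change of -0.85. With oxamate 3 of 19 fell at least 1.5-fold and none rose, against 3.82% and 4.30% of all genes kept, with 5 of 19 above 0 and a median of -0.43. Of the 3 that fell, HSPA5 lies among genes with a mean of 200 to 500 FPKM, of which 15.7% fell by that factor. CALR lies at a mean of 500 FPKM or more, where 9.87% fell, and CRELD2 at 20 to 50 FPKM, where 4.16% fell. The range of CALR also holds hepatocyte genes placed there by the parental library, such as ALB, at 0.747 FPKM in resistant and 0.617 in treated cells. The part of expression level in this list was not tested. HSPA5, the chaperone BiP, was listed at 522 FPKM in parental cells, 280 in resistant cells and 147 under oxamate, with log2 changes of -0.89 and -0.93. XBP1 was listed at 211, 35.7 and 24.7 FPKM, so that the parental library stood well above the others. ATF6 itself was nearly level, at 9.85, 11.3 and 10.5 FPKM.

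**Figure D4:**
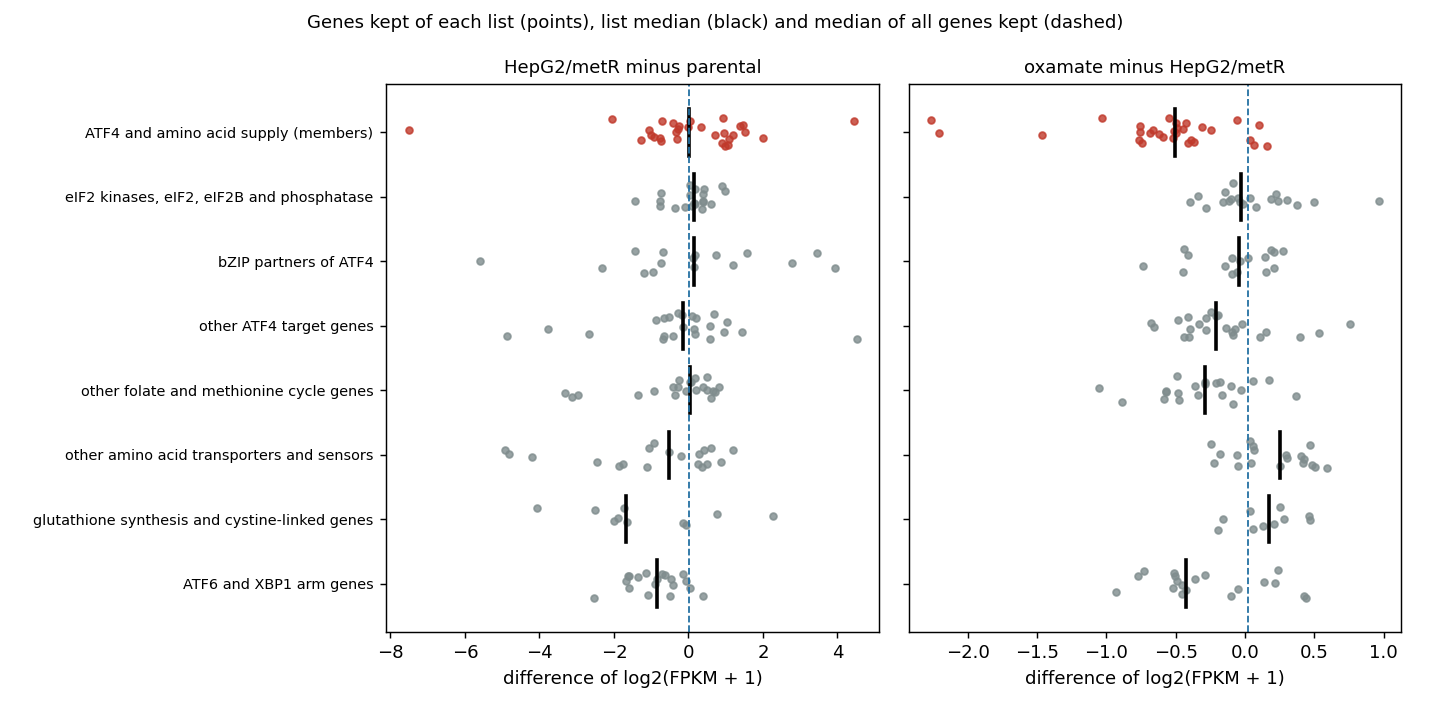
Log2 changes of the genes kept in the 30-gene set (red) and in 7 lists of related genes (grey), with the median of each list as a black bar and the median of all genes kept as a dashed line, left for HepG2/metR against parental cells and right for oxamate against untreated HepG2/metR cells. With oxamate the medians run from -0.50 for the 30 genes to 0.25 for the other amino acid transporters and sensors.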

How the data were processed

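Total RNA of 3 cultures was sequenced, with 1 library each. The authors deposited 1 value per gene symbol on a log2 scale. The unit, log2(FPKM + 1), was inferred from the digits of the values. The submitters' processing notes name STAR 2.5.1b, Cufflinks 2.2.1, FastQC 0.11.5 and hg19, without roles; the annotation and filters are not given in the sources used here. Values were used without further scaling. Changes are differences of the deposited values (pseudocount 1), over 12210 genes with a mean of at least 1 FPKM. Genes were called past 2-fold for HepG2/metR against parental cells and past 1.5-fold for oxamate, the thresholds of the study's methods. The unit left no count model, and 1 library per group left no test. Read depth is unknown and no interval could be formed. All 32 genes are named. Of each related list, up to 4 genes with the largest change at a mean of at least 5 FPKM could be named, plus EIF2AK1, EIF2AK3, EIF2AK4, ATF6 and HSPA5. KLHL24, RRAGD and SLC38A1 were named outside this rule, after their values were seen. The genes and lists were chosen with earlier results of these data known. The calculation was run on simulated data with changes well past the thresholds, in well expressed genes and with little noise. That checks the code and says nothing about the spread between cultures or about changes near a threshold. Gene symbols of 28 rows had become dates and were not used by name. Promoter windows are from RefSeq (GRCh38.p14) and were not joined to hg19 coordinates. Alternatives covered the pseudocount, the filter, the scaling, the thresholds and the motif. Python 3.11.15, numpy 2.4.6, pandas 2.3.3 and matplotlib 3.10.9 were used.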

Additional observations from a re-analysis of the deposited data

How the results depend on the processing

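Without replicates, the spread between cultures is unknown and limits every value. A 1.5-fold threshold for HepG2/metR against parental cells gave 13 of 30 genes higher and 9 lower, against 26.7% and 27.0% of all genes kept. The near-zero median of that comparison was -0.0515 with no filter on low values, -0.0168 at a mean FPKM of at least 5 and 0.17 under upper-quartile scaling, where all genes had a median of 0.15. With oxamate 7 of 30 genes were at least 1.5-fold lower at the same FPKM total, against 1.57% of all genes. Without small-RNA genes in that total the count was 4 of 30, against 1.42%. The median was -0.34 and -0.33 under these 2 scalings. At a 2-fold threshold 4 of 30 were lower with oxamate, against 0.524% of all genes kept. With no pseudocount 1 of 30 genes, PSAT1, was at least 1.5-fold higher, from values near 0, against 9.36% of the 11872 genes compared. No called gene changed sign under the alternatives run. In HepG2/metR, TRIB3 lost its 2-fold call under 3 of them. PHGDH, PSPH, CBS, SLC7A11 and SLC7A1 gained a 2-fold call under at least 1, and ALDH18A1, ATF5, CEBPB, PYCR1 and SLC1A5 were added only by the 1.5-fold threshold. The share of genes with the promoter element was 30.8% with TGATGNAA. No paired analysis was possible because each condition had 1 library.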

Other observations

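Of 26 other amino acid transporters and nutrient sensors listed, 19 were kept. With oxamate 14 of the 19 had values above those of untreated resistant cells, against 6461 of all 12210 genes kept. Their median log2 change was 0.25, and 1 passed 1.5-fold upwards, against 4.30% of all genes kept. That gene was RRAGD, a Rag GTPase of the mTORC1 nutrient pathway, with a log2 change of 0.59, named after its value was seen. The median of all genes with oxamate was 0.14 for a mean of 2 to 5 FPKM and 0.12 for 5 to 10 FPKM. It was 0.05 for 10 to 20 FPKM and -0.07 for 20 to 50 FPKM. The part of expression level in this list was not tested. SESN1, a relative of SESN2, was listed at 15.2, 3.80 and 5.44 FPKM, so that the relatives had their highest values in different cultures. Between resistant and parental cells 8 of the 19 were at least 2-fold lower and 1 at least 2-fold higher, against 17.6% and 16.6% of all genes kept. The gene that was higher, named after its value was seen, was the glutamine carrier SLC38A1, at 29.8 FPKM in parental and 69.5 in resistant cells. The glutamine carriers SLC38A3 and SLC38A5 were at 30.4 and 29.1 FPKM in parental cells, and their resistant-cell values were 0.0299 and 0.0758 FPKM. The large neutral amino acid carrier SLC43A1 was at 27.1 and 0.534 FPKM.

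Of 10 genes of glutathione synthesis and cystine use, 6 were at least 2-fold lower and 1 at least 2-fold higher in resistant than in parental cells, against 17.6% and 16.6% of all genes kept. None of the 10 passed 1.5-fold with oxamate, against 3.82% of all genes kept that fell and 4.30% that rose. TXNRD1, thioredoxin reductase, was the gene higher in resistant than in parental cells, at 90.1 FPKM in parental cells, 438 in resistant cells and 449 under oxamate. GGT1, which degrades extracellular glutathione, was listed at 19.5, 0.235 and 0.353 FPKM. GCLC, the catalytic subunit of the first glutathione synthesis step, had log2 changes of -2.00 and 0.47, and its modifier subunit GCLM 0.77 and 0.46.

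In the folate and methionine cycles, the 21 genes kept had a median log2 change of -0.29 with oxamate. The glycine cleavage gene GLDC was listed at 58.8 FPKM in parental cells, 5.01 in resistant cells and 3.04 under oxamate. The median between resistant and parental cells was 0.03, with 4 of 21 at least 2-fold lower and none at least 2-fold higher, against 17.6% and 16.6% of all genes kept.

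The near absence of PSAT1 from both HepG2/metR libraries was not shared by its nearest coding neighbours with a listed symbol in the RefSeq gene order. They were looked up after its value was seen. CEP78 was listed at 6.33 FPKM in parental cells, 9.62 in resistant cells and 7.86 under oxamate. GNAQ, beyond CEP78, stood at 8.74, 12.0 and 13.5 FPKM. TLE4, on the other side, was at 0.646, 7.56 and 10.9 FPKM. TLE1, beyond TLE4, was lower in both resistant libraries than in the parental one, at 13.1, 6.27 and 6.01 FPKM. GNA14 and SPATA31D4, further out, were at or near 0 in every library, the parental one included, and are uninformative here. Why PSAT1 was nearly absent was not tested.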
